A study of Mus musculus with 9 samples.

Results

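The genes described here are 9 mouse genes of the cytotoxic granule, the secretory lysosome with which CD8 T cells kill, taken by symbol from a table of 55011 genes. They are the pore former Prf1, the granzymes Gzmb and Gzma, the protease Ctsw, the proteoglycan Srgn, the membrane proteins Nkg7 and Lamp1, and the intracellular protease inhibitors Serpinb9 and Serpinb6b. All 9 were in the table, and 8 passed the filter on low counts together with 10235 genes in all, while Gzma did not. RNA was sequenced from wild-type spleen CD8 T cells, naive before culture and stimulated for 6 h on plate-bound antibodies to CD3 and CD28 (4 µg/mL). Control cells were left without a compound, and in the other groups D-2HG or L-2HG, the mirror-image forms of 2-hydroxyglutarate, was present at 20 mM from the onset of stimulation. Each group had 3 libraries, each of these factors but the compound was common to all 9, and the study's labels give no age or sex of the mice. The origin of the replicates (mice, cultures or wells) is not stated. The p-values therefore set group differences against a spread between these samples that may be only technical.

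In a killer T cell, perforin opens the target's membrane to granzymes, serine proteases that cleave proteins of the target and can trigger its death. Serglycin carries sulfated sugar chains that hold these basic proteins in the granule core. Vesicle tethering and fusion proteins bring the granule to the synapse, where its membrane proteins appear on the cell surface. Cytosolic serpins bind and inactivate proteases that leak into the killer's own cytoplasm, and Serpinb9 is known as the inhibitor of granzyme B. Naive CD8 T cells hold few granules, and the program is built up after activation.

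Total gene counts ran from 562627 in L-2HG replicate 2 to 5731885 in control replicate 3. The predicted satellite-like genes Gm10800 and Gm10801 took 0.910% to 5.35% of the counts in control, 3.79% to 17.05% with D-2HG and 6.71% to 24.4% with L-2HG, and the library with the highest share was replicate 2 in control, replicate 3 with D-2HG and replicate 2 with L-2HG. Transcripts encoded by mitochondria took 2.23% to 3.06% of the counts in control, 0.992% to 1.88% with D-2HG and 1.19% to 1.83% with L-2HG, so that both treated groups lay below control. Sensory receptor genes, which T cells do not use, lay at 0.0382 to 0.142 CPM per kb of exon in control, 0.126 to 0.219 with D-2HG and 0.209 to 0.568 with L-2HG. Levels are given as CPM, the usual depth-scaled count, here over the TMM-scaled library total, and differences as log2 fold changes with their 95% intervals from edgeR. A gene was called changed at a Benjamini-Hochberg adjusted p under 0.05 over all 10235 genes. With D-2HG 22.3% of these genes were called, of which 52.9% were higher (68.6% when scaled by library totals and 43.8% with DESeq2 size factors). With L-2HG 17.7% were called, of which 53.1% were higher (74.3% and 36.2% in the same 2 scalings). The DESeq2 size factors moved the median log2 fold change of all genes with L-2HG from 0.05 to -0.07.

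Both inhibitor genes fell with both compounds, and no other granule gene was called in either comparison. With D-2HG, 2 of the 8 tested granule genes were called lower and none higher, where 10.5% of all tested genes were called lower and 11.8% higher. With L-2HG, 2 of 8 were called lower, where 8.30% of all genes were, and none of the 8 was called higher, where 9.41% of all genes were. The median log2 fold change of the 8 genes was -0.51 with D-2HG and -0.48 with L-2HG, against 0.04 and 0.05 over all genes tested. Both comparisons share the control libraries. In RNA from bulk cells, fewer cells that express a gene and less of its RNA per cell cannot be told apart.

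**Figure D1:**
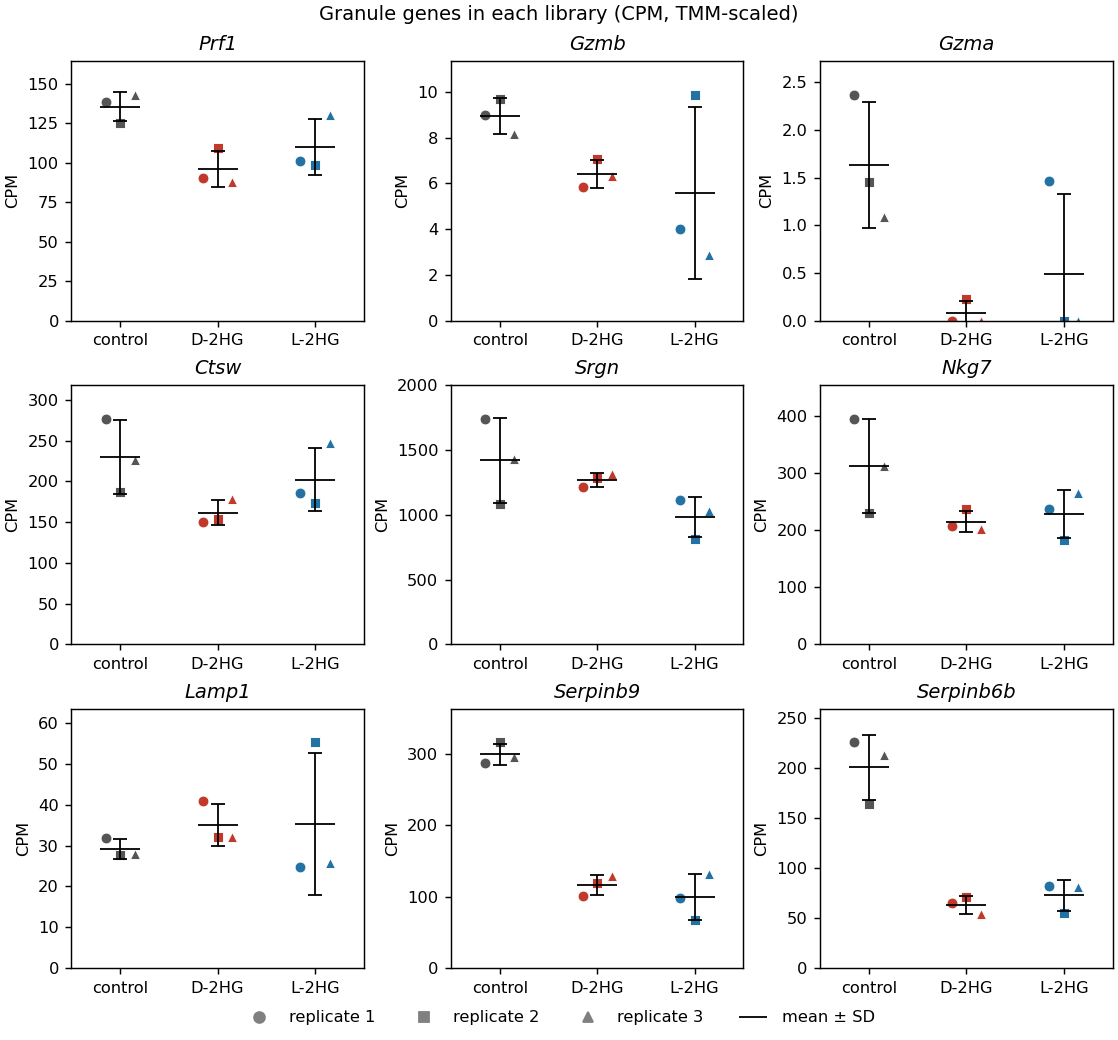
Each point is the CPM of 1 granule gene in 1 library (control in grey, D-2HG in red, L-2HG in blue; marker shapes give the replicate), with the mean and SD of 3 libraries in black and each axis starting at 0. All 6 libraries with a compound lie below all 3 control libraries for Serpinb9 and Serpinb6b, and for Prf1, Gzmb, Gzma and Ctsw all D-2HG libraries lie below the controls while at least 1 L-2HG library lies within or above their range.

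Serpinb9, which inactivates granzyme B, lies on the plus strand of chromosome 13 (chr13:33003250-33017957, mm10, ENSMUSG00000045827). It measured 286.5, 316 and 295 CPM in control replicates 1, 2 and 3, 100.5, 119 and 129 CPM with D-2HG, and 98.3, 67.1 and 132 CPM with L-2HG. All treated libraries were below the lowest control library, and the treated groups overlapped each other. Against a control mean of 299 ± 15.1 CPM (SD, n = 3), the mean was 116 ± 14.4 CPM with D-2HG and 99.1 ± 32.3 CPM with L-2HG. The gene fell to 38.8% of control with D-2HG (log2 fold change -1.36, SE 0.21, 95% interval -1.81 to -0.92, edgeR adjusted p = 0.000634). With L-2HG it fell to 34.1% of control (log2 fold change -1.55, SE 0.22, interval -2.01 to -1.09, edgeR adjusted p = 0.00091). The call held in all 19 alternative settings for each compound, with log2 fold changes from -1.50 to -1.28 for D-2HG and from -1.85 to -1.39 for L-2HG.

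Serpinb6b, a serpin of the same subfamily reported as an inhibitor of granzyme A, lies 24182 bases upstream of Serpinb9 on the same strand (chr13:32965209-32979067, ENSMUSG00000042842). Its level was 226, 164 and 214 CPM in control, 65.4, 70.8 and 53.7 CPM with D-2HG, and 81.9, 55.3 and 81.3 CPM with L-2HG. Again no treated library reached the lowest control library, control replicate 2. The group means were 201 ± 32.6 CPM in control, 63.3 ± 8.71 CPM with D-2HG and 72.8 ± 15.2 CPM with L-2HG. Serpinb6b fell to 31.5% of control with D-2HG (log2 fold change -1.67, SE 0.21, interval -2.11 to -1.22, edgeR adjusted p = 6.55e-05). With L-2HG it fell to 37.2% of control (log2 fold change -1.43, SE 0.22, interval -1.88 to -0.98, edgeR adjusted p = 0.00159). This call, too, held in all 19 alternatives for each compound, from -1.80 to -1.57 for D-2HG and from -1.70 to -1.31 for L-2HG.

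These serpin genes sit in a cluster of close copies, so the neighbourhood was examined. Within 500000 bases on either side, GENCODE lists 15 protein-coding genes, 12 of them Serpinb genes, and 3 of the 15 passed the count filter. Besides Serpinb6b and Serpinb9 that was Wrnip1, a gene for an ATPase of DNA repair, with log2 fold changes of -0.19 with D-2HG and 0.17 with L-2HG (edgeR adjusted p = 0.667 and 0.727). The close copies of the pair were nearly silent. Summed over 10 other genes of the Serpinb6 and Serpinb9 groups, the level was 5.92 to 9.59 CPM in control, 6.17 to 14.0 CPM with D-2HG and 10.2 to 15.2 CPM with L-2HG. The lowest level of either member in any library, 53.7 CPM, was above the highest sum of these copies. How the authors counted reads that match several copies is not given in the sources used here.

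Because the pair moved together, the sequences before their RefSeq starts are shown, with those of Prf1 and Gzmb as granule genes that were not called. Each line gives the 250 bases before the transcript start in RefSeq on GRCm38.p6, 5′ to 3′ on the gene's own strand. RefSeq and GENCODE starts differ. The Serpinb9 window lies wholly inside the GENCODE interval given above, so it is not upstream of that start. The windows of Serpinb6b and Prf1 end inside their GENCODE intervals. Capitals mark exact matches, on either strand, to 6 motifs: AP-1 (TGANTCA), RUNX (TGTGGT), the interferon-stimulated response element core (GAAA, any 2 bases, then GAAA), ETS (AGGAAGT), T-box (AGGTGTG) and a lysosomal-gene E-box (CACGTGA).
Serpinb9 (chr13:33004291-33004540, plus strand): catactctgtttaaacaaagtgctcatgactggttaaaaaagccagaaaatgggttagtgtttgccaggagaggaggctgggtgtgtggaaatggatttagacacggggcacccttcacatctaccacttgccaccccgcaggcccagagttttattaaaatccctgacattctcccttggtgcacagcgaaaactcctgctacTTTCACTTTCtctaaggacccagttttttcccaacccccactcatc
Serpinb6b (chr13:32965011-32965260, plus strand): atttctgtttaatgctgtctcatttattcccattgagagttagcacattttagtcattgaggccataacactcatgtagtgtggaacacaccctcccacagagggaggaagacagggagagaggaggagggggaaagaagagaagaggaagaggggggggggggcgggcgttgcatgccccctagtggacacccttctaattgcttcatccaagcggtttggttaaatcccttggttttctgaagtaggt
Prf1 (chr10:61297586-61297835, plus strand): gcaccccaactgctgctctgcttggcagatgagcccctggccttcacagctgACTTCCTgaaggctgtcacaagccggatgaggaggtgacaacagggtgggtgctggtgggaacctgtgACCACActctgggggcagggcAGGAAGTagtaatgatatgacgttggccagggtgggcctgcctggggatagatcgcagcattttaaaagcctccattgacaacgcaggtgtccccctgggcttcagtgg
Gzmb (chr14:56262335-56262584, minus strand): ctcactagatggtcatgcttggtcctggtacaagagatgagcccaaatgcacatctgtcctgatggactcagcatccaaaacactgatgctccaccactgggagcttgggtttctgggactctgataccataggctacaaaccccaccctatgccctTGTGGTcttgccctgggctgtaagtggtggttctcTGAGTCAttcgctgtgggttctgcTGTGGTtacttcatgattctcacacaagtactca

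The serpin windows shared none of these motifs. Serpinb9 held 1 response element core, 46 to 37 bases before its start, a motif found in 2.98% of 32851 such windows, and Serpinb6b held no match to any of the 6. Prf1 held 2 ETS matches (7.69% of windows) at 198 to 192 and 109 to 103 bases before the start, and 1 RUNX match at 130 to 125 bases (14.0% of windows). Gzmb held an AP-1 match at 58 to 52 bases (6.75% of windows) and RUNX matches at 93 to 88 and 34 to 29 bases. Of the 9 granule genes, 8 had a window in the RefSeq table, all but Ctsw. The response element core also occurred in Lamp1 (135 to 126 bases), Gzma (97 to 88 bases) and a window of Srgn (220 to 211 bases). Neither Lamp1 nor Srgn was called, and Gzma, which missed the count filter, could not be called in the main fit. Lamp1 held 4 matches to the E-box, which 3.13% of windows contain, and Nkg7 held the only T-box match among the granule genes (5.10% of windows). A match is a run of letters and was not tested as a binding site.

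Prf1 encodes perforin, the pore-forming protein (chr10:61297833-61304680, plus strand, ENSMUSG00000037202). Its level was 139, 125 and 143 CPM in control replicates 1, 2 and 3, 90.5, 109 and 88.0 CPM with D-2HG, and 101, 98.7 and 130.3 CPM with L-2HG. All D-2HG libraries were below all controls, whereas L-2HG replicate 3 lay within the control range. Means were 135.5 ± 9.35, 95.9 ± 11.5 and 110.0 ± 17.7 CPM (SD, n = 3). The difference did not pass the threshold with D-2HG (log2 fold change -0.50, interval -0.90 to -0.09, edgeR adjusted p = 0.0668) or with L-2HG (-0.29, interval -0.70 to 0.12, adjusted p = 0.288). Without control replicate 2 the D-2HG difference was called (-0.57, edgeR adjusted p = 0.0214), as it was with DESeq2 (adjusted p = 0.0303).

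Among the granzymes, Gzmb was low at this time (chr14:56258838-56262260, minus strand, ENSMUSG00000015437). The gene encodes granzyme B, which cuts after aspartate and activates caspases. It had 38, 20 and 45 counts in control (8.999, 9.69 and 8.14 CPM), 17, 31 and 14 with D-2HG (5.85, 7.08 and 6.32 CPM), and 11, 5 and 6 with L-2HG (4.02, 9.87 and 2.85 CPM). D-2HG libraries all lay below the controls, while L-2HG replicate 2, with 5 counts, was above them. The level that sensory receptor genes would predict for a gene of this length was 0.0549 to 0.815 CPM. Neither difference passed, at -0.46 with D-2HG (interval -1.24 to 0.32, edgeR adjusted p = 0.376) and -1.01 with L-2HG (interval -1.94 to -0.09, adjusted p = 0.106). For L-2HG it was called when the library with the highest satellite share was left out of each group (-1.33, edgeR adjusted p = 0.0239).

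Gzma, the gene of the tryptase-like granzyme A, was barely counted (chr13:113093825-113100981, minus strand, ENSMUSG00000023132). Control libraries held 10, 3 and 6 counts, D-2HG libraries 0, 1 and 0, and L-2HG libraries 4, 0 and 0. A floor of 3 counts stood for 0.543 to 1.45 CPM in control libraries and for up to 5.92 CPM in L-2HG replicate 2. The pooled level with D-2HG was 0.0654 of control (exact binomial 95% interval 0.00157 to 0.412) and with L-2HG 0.465 of control (0.115 to 1.40), intervals that cover counting error only. Fitted without a count filter, the gene was not called with D-2HG (edgeR adjusted p = 0.107) or with L-2HG (adjusted p = 0.51).

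Of 8 further granzyme genes, only Gzmm, encoding granzyme M, passed the filter, with 18, 26 and 24 counts in control, D-2HG and L-2HG. Its levels were 1.32 ± 0.725, 3.06 ± 2.51 and 4.36 ± 0.405 CPM in the same order. In L-2HG replicate 2 the floor of 3 counts, 5.92 CPM, lay above the highest Gzmm level of that group, 4.76 CPM. The log2 fold changes of Gzmm were 0.96 (edgeR adjusted p = 0.285) and 1.59 (adjusted p = 0.0987). Gzmc had 14, 10 and 9 counts per group, Gzmf 3, 5 and 3, Gzmn 1, 3 and 2, and Gzmk 5, 0 and 2. Gzmg had 0, 1 and 1 counts and Gzme 0, 0 and 3, and Gzmd had none in any group. The 8 genes summed to 3.08 to 3.88 CPM in control, 2.75 to 7.22 CPM with D-2HG and 7.90 to 8.56 CPM with L-2HG. Because these genes resemble one another and Gzmb, reads can be shared between them.

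Ctsw encodes cathepsin W, a cysteine protease found mainly in cytotoxic lymphocytes (chr19:5465043-5468507, minus strand, ENSMUSG00000024910). Its level was 277, 187 and 227 CPM in control, 151, 154 and 179 CPM with D-2HG, and 186, 174 and 246 CPM with L-2HG. D-2HG libraries were all below the lowest control, control replicate 2, and L-2HG libraries overlapped the controls. The log2 fold change was -0.52 with D-2HG (interval -0.94 to -0.10, edgeR adjusted p = 0.0682) and -0.18 with L-2HG (interval -0.61 to 0.25, adjusted p = 0.541). Without control replicate 2 it was called for D-2HG (-0.66, edgeR adjusted p = 0.00806). Ctsw shares 9 exonic bases with Fibp on the opposite strand, and whether the counting used strand is not given in the sources used here.

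Srgn encodes the core protein of serglycin and had the most counts of the 9 genes in every library (chr10:62493833-62527451, minus strand, ENSMUSG00000020077). It measured 1740.3, 1086 and 1428 CPM in control, 1211, 1284 and 1314 CPM with D-2HG, and 1111, 813 and 1026 CPM with L-2HG. The control libraries spread widely and covered every D-2HG library, and L-2HG replicate 1 lay above control replicate 2. Log2 fold changes were -0.16 with D-2HG (interval -0.59 to 0.27, edgeR adjusted p = 0.588) and -0.53 with L-2HG (interval -0.96 to -0.09, adjusted p = 0.0792). Without control replicate 2 Srgn was called with L-2HG (-0.72, edgeR adjusted p = 0.00595), as it was with DESeq2 (adjusted p = 0.0154).

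Nkg7 encodes a granule membrane protein needed for efficient degranulation (chr7:43437073-43438249, plus strand, ENSMUSG00000004612). Levels were 395, 231 and 313 CPM in control, 206, 237 and 202 CPM with D-2HG, and 237, 184 and 265 CPM with L-2HG. Control replicate 2 fell among the treated libraries, and the other controls lay above all of them. The log2 fold change was -0.54 with D-2HG (interval -0.98 to -0.10, edgeR adjusted p = 0.0668) and -0.44 with L-2HG (interval -0.89 to 0.00, adjusted p = 0.14). Both were called without control replicate 2 (-0.74, edgeR adjusted p = 0.00394, and -0.64, adjusted p = 0.0111). The D-2HG difference was also called without L-2HG replicate 2 (-0.55, edgeR adjusted p = 0.045).

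Lamp1, whose product CD107a marks lysosome and granule membranes and appears on the surface of degranulating cells, went the other way in its values (chr8:13159161-13175338, plus strand, ENSMUSG00000031447). It measured 32.0, 27.6 and 28.1 CPM in control, 40.9, 32.2 and 32.1 CPM with D-2HG, and 24.9, 55.3 and 25.7 CPM with L-2HG. D-2HG libraries lay just above the controls, and the L-2HG libraries fell on both sides of them, replicate 2 having the highest level with 28 counts. The log2 fold change was 0.26 with D-2HG (interval -0.28 to 0.80, edgeR adjusted p = 0.469). With L-2HG it was 0.10 (interval -0.48 to 0.69, adjusted p = 0.812), and the sign turned without L-2HG replicate 2 (-0.23) and with DESeq2 size factors (-0.03). Lamp1 shares 249 exonic bases with Grtp1 on the opposite strand, which was counted at 3.12 ± 0.431 CPM in control.

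Ranges of the groups show how far these values separate. With D-2HG, 6 of the 8 genes had libraries that did not overlap the controls, 5 below (Prf1, Gzmb, Ctsw, Serpinb9, Serpinb6b) and 1 above (Lamp1), where 40.0% of all tested genes did not overlap. With L-2HG only the 2 serpins did not overlap the controls, where 31.2% of all tested genes did not. Leaving out control replicate 2 raised the number of granule genes called from 2 to 5 with D-2HG (adding Prf1, Ctsw and Nkg7) and from 2 to 4 with L-2HG (adding Srgn and Nkg7). Calls over all genes also rose with that omission, from 2278 to 4257 with D-2HG and from 1812 to 4108 for L-2HG. Leaving out the library with the highest satellite share in each group, which includes that control library, gave 5 called granule genes for each compound, beside 4493 and 4379 calls over all genes. DESeq2 gave 5 with D-2HG and 3 with L-2HG, beside 2205 and 2106 calls over all genes.

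**Figure D2:**
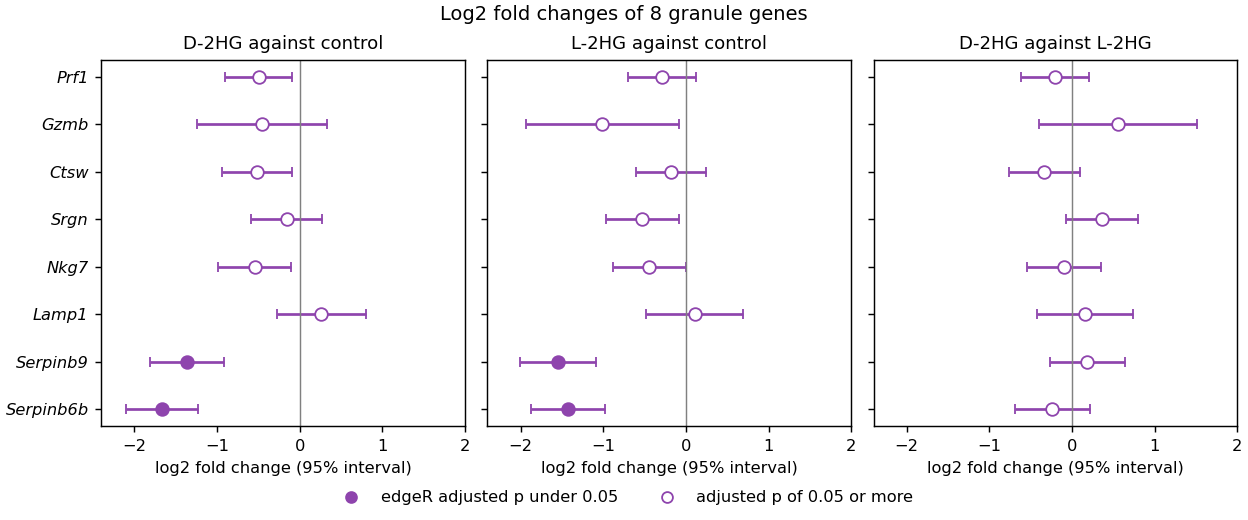
Log2 fold changes of the 8 tested granule genes with 95% intervals from the edgeR fit, for each compound against control (left and middle) and for the compounds against each other (right); filled points passed an adjusted p of 0.05. Serpinb9 and Serpinb6b stand at -1.36 to -1.67 against control in both left panels, and each interval in the right panel includes 0.

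The compounds, which differ only in the configuration at the carbon that bears the hydroxyl group, were compared at the same dose and time. None of the 8 granule genes was called between D-2HG and L-2HG by edgeR, where 0.303% of all genes were, and none in any of the 19 alternatives, DESeq2 among them. No granule gene had an unadjusted p under 0.05 in this comparison. For Serpinb9 the log2 difference, D-2HG minus L-2HG, was 0.19 (interval -0.27 to 0.64, edgeR adjusted p = 0.929). For Serpinb6b it was -0.24 (interval -0.69 to 0.22, adjusted p = 0.891), and for Prf1 -0.21 (-0.62 to 0.21, adjusted p = 0.898). These intervals leave room for differences of up to 0.69 in log2 units between the compounds, so that equal responses are not shown.

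The other intervals were of like width. Ctsw differed by -0.34 (-0.77 to 0.09, edgeR adjusted p = 0.81), Nkg7 by -0.10 (-0.55 to 0.34, adjusted p = 0.966) and Lamp1 by 0.16 (-0.43 to 0.74, adjusted p = 0.965). Srgn was the single granule gene whose D-2HG libraries, at 1211 to 1314 CPM, did not overlap the L-2HG libraries, at 813 to 1111 CPM, where 15.9% of all tested genes did not overlap and 7.77% had D-2HG as the higher group. Its log2 difference was 0.37 (-0.07 to 0.80, edgeR adjusted p = 0.791). Gzmb, with few counts, had the widest interval (0.55, -0.40 to 1.51, adjusted p = 0.867).

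Ratios of counts within a library need no scaling between libraries, and they show the inhibitors against the effectors. The ratio of Serpinb9 to Prf1 was 2.07, 2.53 and 2.06 in control, 1.11, 1.09 and 1.46 in D-2HG libraries, and 0.975, 0.680 and 1.01 in L-2HG libraries. Means were 2.22 ± 0.266, 1.22 ± 0.208 and 0.889 ± 0.182 (SD, n = 3), with no overlap between any of the 3 groups. The log2 difference from control was -0.87 with D-2HG and -1.34 with L-2HG (two-sided exact permutation p = 0.1 each, the smallest that 3 against 3 libraries allow; adjusted p = 0.24 over 24 ratio comparisons).

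Serpinb6b to Prf1 was 1.63, 1.31 and 1.49 in control, 0.722, 0.649 and 0.610 in D-2HG libraries, and 0.812, 0.560 and 0.624 in L-2HG libraries. Every treated ratio was below every control ratio, by -1.16 and -1.17 in log2 units on average (exact permutation p = 0.1 and 0.1). Set against Nkg7 in place of Prf1, Serpinb9 differed by -0.86 and -1.21 and Serpinb6b by -1.15 and -1.04 (exact permutation p = 0.1 for each). The ratio of Serpinb9 to Serpinb6b was 1.52 ± 0.350 in control, 1.87 ± 0.458 in D-2HG and 1.35 ± 0.238 in L-2HG libraries, with ranges that overlapped (exact permutation p = 0.4 and 0.5 against control).

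Against control, the ratios of Nkg7, Ctsw and Srgn to Prf1 overlapped in range with each compound. Ratios of Gzmb, Gzma and Lamp1 to Prf1 were not computed. Nkg7 to Prf1 was 2.30 ± 0.512, 2.25 ± 0.0680 and 2.08 ± 0.247 in control, D-2HG and L-2HG (exact permutation p = 0.9 and 0.7). Ctsw to Prf1 was 1.69 ± 0.269, 1.70 ± 0.311 and 1.83 ± 0.0659 (exact permutation p = 1 and 0.4). Srgn to Prf1 was 10.4 ± 1.97, 13.4 ± 1.58 and 9.04 ± 1.72 (exact permutation p = 0.2 and 0.4 against control). Between the compounds the Srgn ratio did not overlap, at 11.8 to 14.9 in D-2HG and 7.87 to 11.01 in L-2HG libraries (log2 difference 0.57, exact permutation p = 0.1, adjusted p = 0.24). A p-value above the threshold in so small a design does not show that these ratios were equal.

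**Figure D3:**
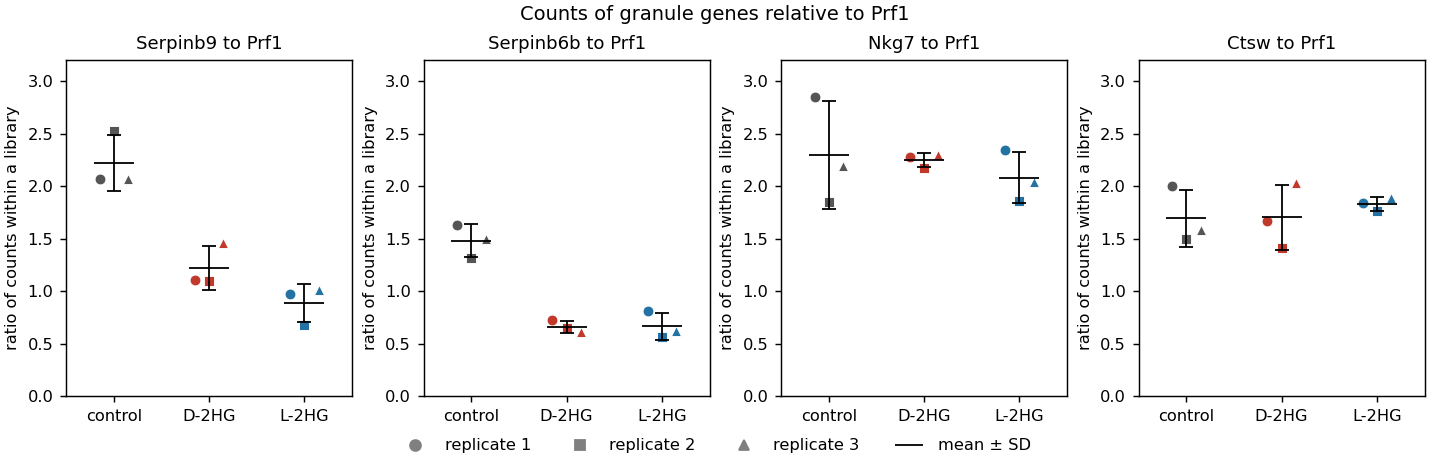
Ratio of the counts of 4 granule genes to the counts of Prf1 within each library, with the mean and SD of 3 libraries in black and an axis from 0. Serpinb9 and Serpinb6b lie between 1.31 and 2.53 in control and between 0.560 and 1.46 with a compound, while Nkg7 and Ctsw overlap between groups.

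Levels of different genes can be compared only roughly per kilobase of exon, since the length used is the union of a gene's exons, not the transcript in use. On this scale the order in control was Srgn at 646 ± 149 CPM per kb, Nkg7 at 342 ± 90.0, Ctsw at 122 ± 24.0, Serpinb6b at 89.0 ± 14.4, Serpinb9 at 85.6 ± 4.34 and Prf1 at 52.4 ± 3.62. Lamp1 at 10.9 ± 0.895, Gzmb at 6.23 ± 0.540 and Gzma at 1.63 ± 0.656 CPM per kb stood lowest. Neighbours overlapped for Ctsw and Serpinb6b and for Serpinb6b and Serpinb9, and every other neighbouring pair was separated. In control libraries both serpins thus stood above Prf1 on this scale.

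With D-2HG the order on the same scale was Srgn (578 ± 24.1 CPM per kb), Nkg7 (235 ± 20.8), Ctsw (85.4 ± 8.13), Prf1 (37.1 ± 4.47), Serpinb9 (33.3 ± 4.12) and Serpinb6b (28.0 ± 3.85). Prf1 and Serpinb9 overlapped there, as did the serpins, and Prf1 lay above Serpinb6b in each library. With L-2HG the levels per kb were 448 ± 69.8 for Srgn, 250.2 ± 45.4 for Nkg7, 107 ± 20.7 for Ctsw, 42.6 ± 6.84 for Prf1, 32.2 ± 6.72 for Serpinb6b and 28.4 ± 9.25 for Serpinb9. All L-2HG libraries had Prf1 above both serpins. Lamp1 was at 13.1 ± 1.90 and 13.2 ± 6.48, and Gzmb at 4.47 ± 0.432 and 3.89 ± 2.62 CPM per kb with D-2HG and L-2HG.

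Over the 9 libraries, which include the group differences and share depth and composition, log2 levels of Serpinb9 and Serpinb6b followed each other most closely among the 8 genes (Pearson r = 0.917). Serpinb6b and Prf1 had r = 0.867, Serpinb6b and Nkg7 0.844, Nkg7 and Ctsw 0.834, and Prf1 and Nkg7 0.833. Lamp1 ran against 6 of the 7 others, with r from -0.534 to -0.378, and Gzmb correlated with none of the others above 0.488. Outside the granule genes, the patterns most like Serpinb6b were those of Tgds (r = 0.987), a sugar nucleotide dehydratase gene, and Itm2a (r = 0.987), a membrane protein gene of activated T cells at 565 CPM in control and 215 and 242 CPM with D-2HG and L-2HG.

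For Serpinb9 they were Rwdd4a and Hnrnpa1, an RNA-binding protein gene (r = 0.972 each). Prf1 was most like Tmem80 (0.978) and Sdhaf2 (0.962), an assembly factor of succinate dehydrogenase. Nkg7 was most like the histone gene H3f3a (0.989) and Ngdn (0.984), and Srgn like Hirip3 (0.980) and Nfkbib (0.972), the latter an inhibitor of NF-kB. Ctsw was most like Cnn2 (0.945) and Ccdc107 (0.944), Lamp1 like Qsox2 (0.958) and Cggbp1 (0.930), and Gzmb like Tom1 (0.912) and Eif3j1 (0.905). Such values are the highest among 10235 genes over 9 points and describe these libraries only.

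Genes that build, load or release the granule were called in both directions. Over all tested genes 11.8% were called higher and 10.5% lower with D-2HG, and for L-2HG 9.41% were called higher and 8.30% lower, shares against which each list's counts are read. Among 18 tested of 20 genes for granule and lysosome proteases and membrane proteins, 1 rose and 3 fell with D-2HG, and 2 fell with L-2HG (median log2 fold change 0.10 and 0.13). Ctss, encoding the lysosomal protease cathepsin S, was lower with both: 176, 106 and 151 CPM in control, 50.6, 62.1 and 51.0 CPM with D-2HG, and 61.4, 53.3 and 88.0 CPM with L-2HG. No treated library reached the controls, and the log2 fold changes were -1.40 (edgeR adjusted p = 0.00102) and -1.07 (adjusted p = 0.012, lost without control replicate 1 or 3 or L-2HG replicate 1, at 0.0534 to 0.0673).

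Lamp2, the partner of Lamp1 in the lysosome membrane, rose with D-2HG from 65.1 ± 15.7 to 134 ± 5.15 CPM (log2 fold change 1.06, edgeR adjusted p = 0.0042). With L-2HG it stood at 100.3 ± 17.9 CPM (0.61, adjusted p = 0.0568). Cst7, encoding cystatin F, an inhibitor of the cathepsin that activates granzymes, fell with D-2HG (-0.84, edgeR adjusted p = 0.0316). With L-2HG Cst7 stood at -0.74 (edgeR adjusted p = 0.0623) and was called in 8 of 19 alternatives. Hexa, a lysosomal hexosaminidase gene, fell with both compounds (-0.69, edgeR adjusted p = 0.038, and -0.78, adjusted p = 0.0348). The calls of Cst7 and Hexa were lost when single libraries were left out, among them control replicate 1 (adjusted p of 0.168 for Cst7 and 0.171 for Hexa with D-2HG) and control replicate 3, and held in 12 and 10 of 19 alternatives.

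Of 25 genes for granule transport and exocytosis 24 were tested, of which 1 rose with D-2HG, and 2 rose and 1 fell with L-2HG (median 0.15 and 0.08), no more than the 11.8%, 9.41% and 8.30% of all genes called in those directions. Rab27a, the GTPase that docks granules at the membrane, measured 28.1 ± 7.87 CPM in control, 50.3 ± 5.79 CPM in D-2HG and 44.0 ± 11.5 CPM in L-2HG libraries. It rose with D-2HG by 0.85 in log2 units (edgeR adjusted p = 0.0213, lost without control replicate 1 or 3 or D-2HG replicate 1 or 3, at 0.0598 to 0.123). Lyst, the lysosome trafficking regulator, rose with L-2HG, from 12.1, 19.9 and 12.1 CPM to 34.0, 33.6 and 39.5 CPM (1.34, edgeR adjusted p = 0.00799, and 0.0673 without control replicate 3). With D-2HG it was at 19.6, 19.0 and 22.6 CPM (0.51, adjusted p = 0.152), and the difference between the compounds was not called (-0.83, interval -1.37 to -0.28, adjusted p = 0.337).

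Unc13d, the Munc13-4 priming factor that works with Rab27a, rose with L-2HG (0.80, edgeR adjusted p = 0.0498), a call that held in 6 of 19 alternatives and was lost without any one of 7 of the 9 libraries. Vti1b, a SNARE gene of granule fusion, fell with L-2HG (-0.83, edgeR adjusted p = 0.0393), although the ranges overlapped, and this held in 11 of 19 alternatives. With D-2HG Vti1b stood at -0.71 (edgeR adjusted p = 0.052) and was called in 10 of 19 alternatives. Of 23 genes that build the sugar chains of serglycin 20 were tested, and only Chpf2, a chondroitin polymerizing factor, passed, with D-2HG (28.7 ± 16.7 to 68.0 ± 1.12 CPM, log2 fold change 1.30, edgeR adjusted p = 0.00651, and 0.0594 without control replicate 3). The list's medians were 0.05 and 0.26. Among 16 other intracellular serpins 1 was tested, Serpinb6a, at -0.50 and -0.97 (edgeR adjusted p = 0.35 and 0.129).

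**Figure D4:**
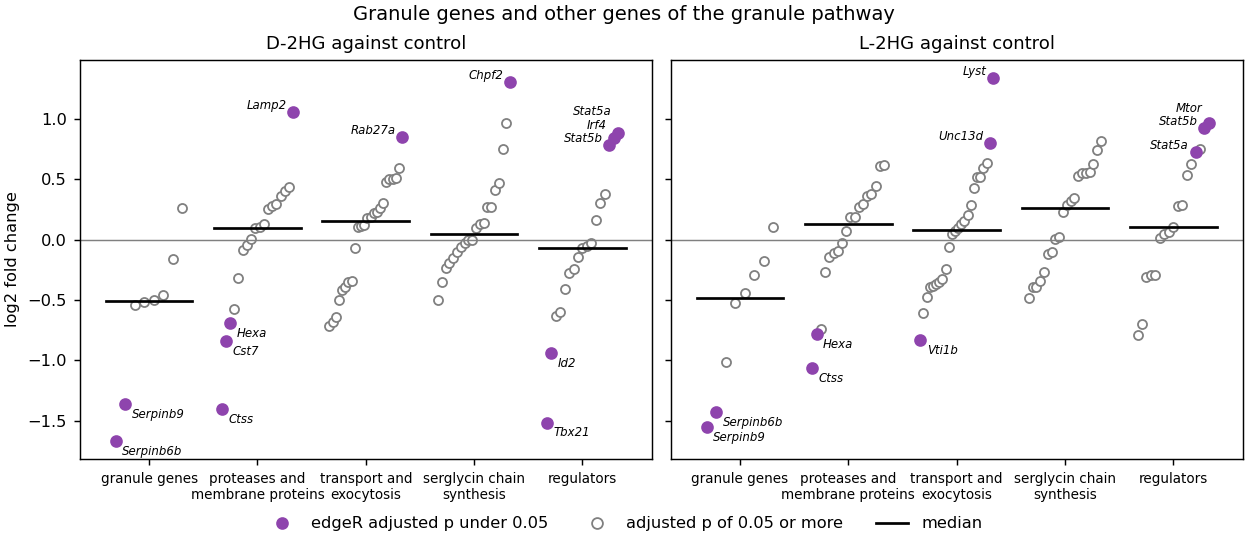
Log2 fold change against control of each tested gene of 5 lists, ordered by size within a list, with filled points for an adjusted p under 0.05 and a black bar at the list median. Granule genes have medians of -0.51 and -0.48, whereas the medians of the 4 other lists drawn lie between -0.07 and 0.26. Marker lists are not drawn, and the 9 CD8 T cell genes had medians of -0.38 and -0.33.

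Regulators of the granule program were called in both directions. Among 17 tested of 20, 3 rose and 2 fell with D-2HG, and 3 rose with L-2HG (median -0.07 and 0.11), beside 11.8% of all genes called higher and 10.5% lower with D-2HG and 9.41% called higher with L-2HG. Tbx21, encoding T-bet, which drives Gzmb, Prf1 and Ifng in effector cells, had 27, 18 and 91 counts in control (6.39, 8.72 and 16.5 CPM). With D-2HG it had 14, 6 and 13 counts (4.82, 1.37 and 5.87 CPM), and with L-2HG 11, 7 and 12 counts (4.02, 13.8 and 5.71 CPM). All D-2HG libraries were below the controls, and the gene fell with D-2HG (-1.51, interval -2.58 to -0.45, edgeR adjusted p = 0.0397). This call held in 11 of 18 alternatives. It was lost without control replicate 3, the highest library (-0.98, edgeR adjusted p = 0.287), and without control replicate 1 (adjusted p = 0.0558). Omission of each D-2HG library in turn also lost it (adjusted p = 0.0565 to 0.167). With L-2HG the ranges overlapped (-0.79, adjusted p = 0.288).

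Eomes and Prdm1, which encode the other main factors of effector differentiation, were too low to test, at 2.41, 2.17 and 2.85 CPM and at 0.964, 1.37 and 1.76 CPM in control, D-2HG and L-2HG. Irf4, a factor induced by receptor signal strength, rose with D-2HG (664 ± 103 to 1190.3 ± 86.2 CPM, log2 fold change 0.84, edgeR adjusted p = 0.00897, and 0.0849 without control replicate 3). With L-2HG it was at 961 ± 115 CPM (0.53, adjusted p = 0.0612). Stat5a and Stat5b, which carry the interleukin-2 signal to Gzmb and Prf1, rose with D-2HG (0.88 and 0.78, edgeR adjusted p = 0.0114 and 0.0227) and with L-2HG (0.72 and 0.93, adjusted p = 0.0332 and 0.0191). Each of these 4 calls was lost without control replicate 1 (adjusted p = 0.0658, 0.106, 0.149 and 0.0857) and without control replicate 3.

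Mtor, the kinase gene of the growth pathway, rose with L-2HG from 34.1 ± 4.04 to 65.9 ± 10.1 CPM (0.96, edgeR adjusted p = 0.0135, lost without control replicate 1 or 3 at 0.0543 and 0.0899). With D-2HG it was at 41.8 ± 3.73 CPM (0.30, adjusted p = 0.302). The remaining regulator past the threshold, Id2, a partner of E proteins that favours effector cells, fell with D-2HG (-0.94, edgeR adjusted p = 0.0235) and is named here after its values were seen. Between D-2HG and L-2HG no gene of the 6 pathway lists was called.

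Markers of the labelled cell type were high, as 9 CD8 T cell genes summed to 3863 to 6314 CPM in control, 3414 to 3887 with D-2HG and 3176 to 4444 with L-2HG. Their median log2 fold change was -0.38 with D-2HG and -0.33 with L-2HG, and 8 of the 9 lay below 0 with each compound. Of these 9 genes, 4 fell with D-2HG, among them Cd8b1 (-0.89, edgeR adjusted p = 0.0138), Cd3e (-0.89, adjusted p = 0.0241) and Trac (-0.63), and Themis rose (0.57, adjusted p = 0.0406). With L-2HG only Trac was called (-0.85, edgeR adjusted p = 0.0202). Over all tested genes 10.5% were called lower with D-2HG and 8.30% with L-2HG. The call held in 16 of 19 alternatives for Cd8b1, in 15 for Cd3e, in 8 for Themis and in 14 for Trac with L-2HG, and each of them was lost without control replicate 1 and without control replicate 3 (adjusted p = 0.0746 and 0.0632 for Cd8b1, 0.108 and 0.0824 for Cd3e, 0.131 and 0.139 for Themis, 0.0971 and 0.0899 for Trac). The Trac call with D-2HG held in 9 of 19 alternatives. It was lost without control replicate 1 or 3 (edgeR adjusted p = 0.242 and 0.143) and without each D-2HG library in turn (0.0885 to 0.186). NK cells share the granule genes. Their 8 markers summed to 3.44 to 7.58 CPM in control, 4.11 to 7.22 with D-2HG and 1.97 to 11.4 with L-2HG, overlapping ranges, and none passed the count filter. The 6 B cell genes summed to 175 to 318 CPM in control, 134 to 135 with D-2HG and 136 to 197 with L-2HG, and Ighm among them fell (-0.92 and -0.67, edgeR adjusted p = 0.0114 and 0.049). The Ighm call was lost without control replicate 1 (adjusted p = 0.0723 and 0.212) and without control replicate 3 (0.0575 and 0.137), and held in 17 of 19 alternatives with D-2HG and 8 of 19 with L-2HG.

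Markers of other cells were low. CD4 T cell genes summed to at most 3.88 CPM, neutrophil genes to at most 2.85, and mast cell and basophil genes, which include other carriers of serglycin, to at most 7.78 CPM in any library. Macrophage and monocyte genes summed to 5.92 to 7.75 CPM in control, 6.62 to 9.93 with D-2HG and 6.58 to 15.7 with L-2HG, with Cd14 at 0 counts in control and L-2HG, Itgam at 0 in control and C1qb at 0 with D-2HG. A list of 7 dendritic cell genes summed to 37.4 to 45.1 CPM in control, 89.1 to 98.9 with D-2HG and 76.0 to 102 with L-2HG, and Ccr9 among them, which T cells also express, rose (1.56 and 1.47, edgeR adjusted p = 0.00024 and 0.00193). Zbtb46, a factor of conventional dendritic cells, rose with L-2HG (1.10, edgeR adjusted p = 0.0382), a call that held in 7 of 18 alternatives and was lost without any one of 7 of the 9 libraries, and stood at 0.71 with D-2HG (adjusted p = 0.122). The part of the satellite, mitochondrial, sensory receptor, B cell, CD8 T cell and dendritic cell shifts in the fall of the serpin genes was not tested.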

How the data were processed

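Polyadenylated RNA of 9 libraries was reverse transcribed from an oligo(dT) primer, amplified by PCR and fragmented by transposase, per the labels' protocols. The deposited count table gives reads per gene symbol as integers. STAR 2.7.3a, featureCounts and mm10 are named for it, per the submitters' processing notes, and settings, strand and annotation release are not given in the sources used here. A second deposited table holds signal values, which the authors made by dividing each library's counts by a constant (recovered counts lay within 6.56e-05 of the raw ones), and it served for gene identifiers only. Positions and exon lengths (the union of a gene's exons) came from GENCODE M21, where 215 symbols had no position. Reads were not analysed here.

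The model was fitted in R 4.3.3 with edgeR 4.0.16 (TMM scaling, filterByExpr with a minimum count of 10, robust quasi-likelihood F test, 1 mean per group over all 9 libraries, 6 residual degrees of freedom, biological coefficient of variation 0.21). Of 55011 genes, 11256 had no count and 10235 were tested, with Benjamini-Hochberg adjustment over all of them. Ratios were compared by two-sided exact permutation in scipy 1.17.1. Replicate pairs of each group differed beyond sampling noise (chi-square per degree of freedom 5.26 to 34.6). The fit was tested on simulated data.

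The granule genes, the gene lists and the motifs were chosen with earlier results of these data known, the motifs with the sequences in view. Named were the 9 granule genes, at most 3 called genes per list and comparison by smallest adjusted p, the 2 genes with the highest Pearson r to each member, and the other granzymes, Tbx21, Eomes and Prdm1. Genes outside this rule are the only tested member of a list or window, partners that overlap a member, and Id2. Alternatives were DESeq2 1.42.0, limma-voom (limma 3.58.1) with sample weights, DESeq2 size factors, library totals, all genes with a count, genes with a mean count of 50 or more, only the groups compared, a replicate block, omission of the library with the highest satellite share per group, subtraction of a genomic background from 1692 sensory receptor genes, and omission of each library in turn.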

Additional observations from a re-analysis of the deposited data

How the results depend on the processing

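Serpinb9 and Serpinb6b were past the threshold in each of the 19 alternatives for each compound, and no granule gene was in any of the 19 for D-2HG against L-2HG. The number of granule genes called with D-2HG was 2, and it was 5 with DESeq2, 5 with limma-voom and 5 without the library with the highest satellite share of each group (2 to 5 over omission of 1 library). With L-2HG it was 2, and 6 with limma-voom and 5 without those libraries (2 to 4 over omission of 1 library, the 4 without control replicate 2). Over all genes, 2278 were called with D-2HG, and 5617 with limma-voom, 1341 without a filter, 4493 without the high-satellite libraries and 384 to 4257 over omission of 1 library. With L-2HG 1812 were called, and 5180 with limma-voom, 1195 at a mean count of at least 50, 427 in a fit of only the 2 groups, 4379 without the high-satellite libraries, 679 with the genomic background subtracted and 65 to 4108 over omission of 1 library. Among these omissions control replicate 2 gave the highest count and control replicate 3 the lowest for each compound. Between the compounds 31 were called, and 49 with DESeq2, 177 with limma-voom, 165 without the high-satellite libraries and 10 to 60 over omission of 1 library. The cause was not tested.

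Signs turned only in differences that were not called. Lamp1 with L-2HG was -0.0004 with DESeq2, -0.084 with limma-voom, -0.027 with DESeq2 size factors, -0.17 without a filter and -0.29 without the high-satellite libraries, with a range of -0.23 to 0.29 over omission of 1 library. Srgn with D-2HG ranged from -0.34 to 0.0075 over omission of 1 library, and Gzmm with D-2HG was -0.025 without the high-satellite libraries. Between the compounds, Nkg7 was 0.037 without a filter (-0.21 to 0.067 over omission of 1 library), Lamp1 ranged from -0.043 to 0.48 over omission of 1 library, and Serpinb9 was -0.033 without the high-satellite libraries. L-2HG replicate 2 held 562627 counts, so that Gzmb rested on 5 counts and Serpinb6b on 28 counts there.

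Same-numbered replicates did not deviate together in each comparison (correlations of -0.172 to 0.283 over 9 pairs), so the numbers were not taken as pairing. With the replicate number as a block, 2 granule genes were called with D-2HG and 2 with L-2HG, Serpinb9 and Serpinb6b in both, and 0 between the compounds; 2314, 2284 and 35 genes were called in all.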
